A study of Cyprinus carpio 'koi' with 9 samples.

Results

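TRINITY_DN166467_c1_g1 and TRINITY_GG_57821_c1_g1 are 2 assembled features of Koi carp skin that the study listed under the melanogenesis pathway and that had few or no reads in black skin. They were taken by their identifiers, 2 of 446614 assembled features and 2 of the 14 that the study placed in this pathway, and they were selected on their measured FPKM in black skin set against white and red skin, so that their differences between black skin and the other colors are a description and were not tested. The tables of the study gave neither feature a gene symbol. Both stood under the terms extracellular region, receptor binding and hormone-mediated signaling pathway, and both were listed for the comparisons of black with white and of red with black skin, but not of red with white skin. No gene name is therefore used here.

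Poly(A) RNA was sequenced from red (RS), black (BS) and white (WS) skin of Koi of the FFRC strain under MS-222 anesthesia, with 3 libraries per color and no other treatment named in the labels. The fish carried red, black and white spots together, and skin of each color was taken from 3 of them. The age of the fish is not given in the sources used here. Whole skin was used, so in each library fewer cells of a type and less RNA per cell cannot be told apart. The libraries held 13773868 to 25002494 expected counts, and the most abundant feature of a library took up to 23.4% of them.

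Pigment in fish skin lies in chromatophores, of which melanophores hold melanin in organelles called melanosomes, while red color comes from carotenoid and pteridine pigments of other chromatophores. The melanogenesis pathway leads from extracellular ligands, which activate or block receptors on the pigment cell, through cAMP and Wnt signaling to transcription factors and from them to the enzymes that make melanin. Proteins annotated as extracellular and receptor binding stand at the ligand end of such a pathway.

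Both features were highest in WS, lower in 2 of the 3 RS libraries, and at or near 0 in BS and in the remaining RS library. The level is given as FPKM, which scales the reads of a feature to its length and to the depth of the library. TRINITY_DN166467_c1_g1 was at 7.03, 0 and 11.20 FPKM in RS replicates 1 to 3, at 0.06, 0 and 0.61 FPKM in BS replicates 1 to 3, and at 121.86, 27.69 and 64.21 FPKM in WS replicates 1 to 3. The RS and WS values of this feature did not overlap, and BS replicate 3 was the only BS library above 1 read. TRINITY_GG_57821_c1_g1 was at 3.23, 0 and 4.29 FPKM in RS, at 0 FPKM in all 3 BS libraries, and at 18.96, 3.95 and 11.37 FPKM in WS. Here RS replicate 3 lay above WS replicate 2, so the RS and WS values overlapped. The supplementary tables of the study print other FPKM values for these features in some libraries, which are WS replicate 2 for both of them and, for TRINITY_DN166467_c1_g1 alone, also replicates 1 and 3 of RS and BS. RS replicate 2 is not among them, and the deposited values are used throughout.

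**Figure D1:**
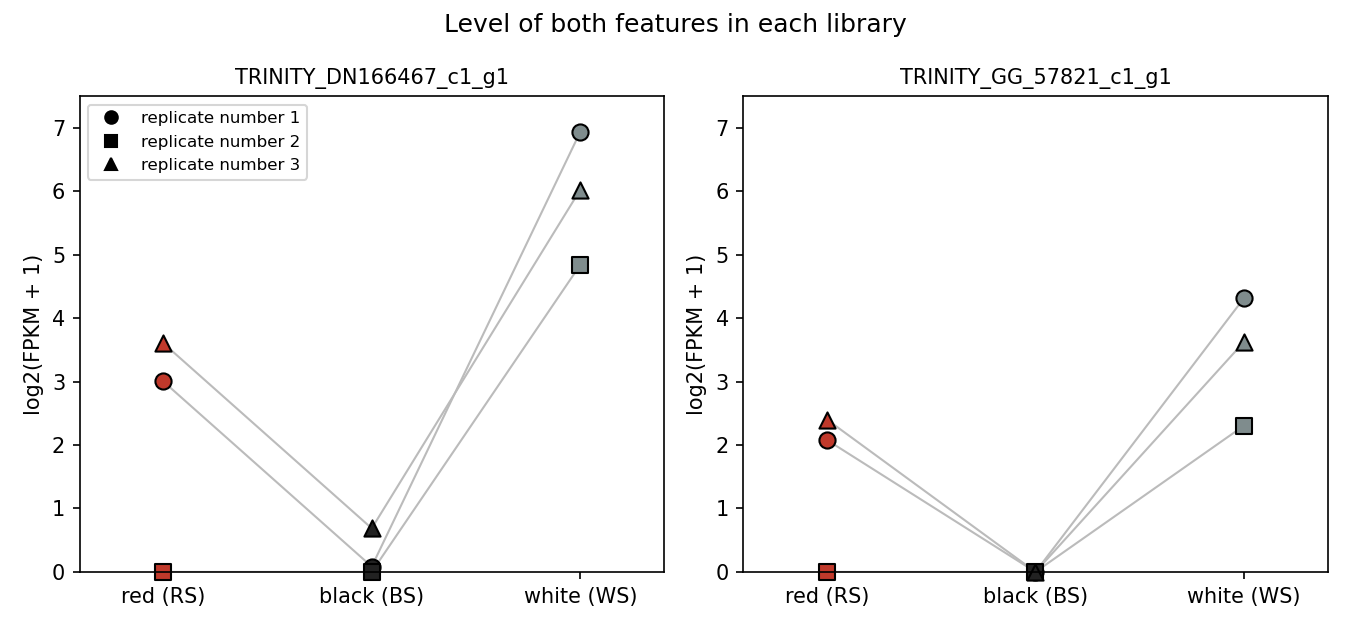
Level of TRINITY_DN166467_c1_g1 (left) and TRINITY_GG_57821_c1_g1 (right) as log2(FPKM + 1) in red, black and white skin. Each point is 1 library, the symbol gives the replicate number, and lines join libraries of the same number. The WS libraries are the highest of their number for both features, and RS replicate 2 lies at 0 beside the BS libraries.

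These levels rested on unequal numbers of reads. The expected counts, which RSEM estimates by dividing reads among similar transcripts, were 148.95, 0 and 217.06 in RS, 1, 0 and 14.85 in BS and 2198.77, 855.56 and 1289.29 in WS for TRINITY_DN166467_c1_g1. For TRINITY_GG_57821_c1_g1 they were 106.05, 0 and 131.45 in RS, 0 in every BS library and 524.09, 183.59 and 359.97 in WS. All but 15.85 of the 4725.48 counts of the first feature, and all 1305.15 of the second, thus came from RS and WS. A count of 0 in RS replicate 2 allowed up to 3 counts, or 0.106 FPKM for TRINITY_DN166467_c1_g1 and 0.0759 FPKM for TRINITY_GG_57821_c1_g1, and in BS replicate 2 the same limit was 0.0878 and 0.0628 FPKM. These limits cover counting error only.

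In WS the first feature was an abundant one. Its mean of 71.2 ± 47.5 FPKM (SD, n = 3) ranked 2340th among the 235106 features with reads in WS, within the highest 0.995%. TRINITY_GG_57821_c1_g1, at 11.4 ± 7.51 FPKM (SD, n = 3) in WS, ranked 17193rd, within the highest 7.31%. The order of colors was the same for both, with RS means of 6.08 ± 5.66 and 2.51 ± 2.24 FPKM (SD, n = 3) between those of BS and WS. The mean of TRINITY_DN166467_c1_g1 in BS was 0.223 ± 0.336 FPKM (SD, n = 3).

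Red against white skin was the comparison least used by the choice of the features. That choice set black skin against both colors, so RS and WS values entered it and the tests below are not independent of it. TRINITY_DN166467_c1_g1 averaged 10.6 ± 9.73 TMM-normalized CPM (counts scaled to library size) in RS and 80.7 ± 61.6 CPM in WS (SD, n = 3 each), and its log2 fold change of RS over WS was -2.95 (standard error 1.71). edgeR's quasi-likelihood test gave an unadjusted p of 0.128 and, adjusted over 66740 tested features by the Benjamini-Hochberg method, a false discovery rate (FDR) of 1. TRINITY_GG_57821_c1_g1 averaged 7.10 ± 6.82 CPM in RS and 19.9 ± 14.7 CPM in WS (SD, n = 3 each), with a log2 fold change of -1.51 (standard error 1.57), an unadjusted p of 0.367 and an FDR of 1 in the same edgeR test. Neither feature passed the threshold of an FDR of at most 0.05 with a log2 fold change of at least 1 in size. Across all features 0 of 66740 passed it in edgeR, 0%, while 271 had an unadjusted p under 0.05, of which those lower in RS made up 0.228% of the tested features, and 49 passed with edgeR's exact test and 58 with DESeq2. With the replicate number as a block, 0 passed and 1089 had an unadjusted p under 0.05, and those lower in RS, TRINITY_DN166467_c1_g1 among them, made up 0.981%. Without and with this block, the features with such a p made up less than the fraction of 0.05 that would arise if none differed. The quasi-likelihood test was thus conservative on these data, and the fit without the block ignored the pairing. An FDR of 1 from it does not show that the colors are alike.

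Between libraries of the same number, RS was below WS for both features in 3 of 3 pairs, as were 21.8% of all tested features. TRINITY_DN166467_c1_g1 in RS reached 5.77% of its WS level among the libraries numbered 1 and 17.4% among those numbered 3. For TRINITY_GG_57821_c1_g1 these shares were larger, 17.0% and 37.7%. In the pair numbered 2 both features were at 0 in RS, so no fold is given. An exact two-sided permutation test of RS against WS on FPKM shuffled single libraries and did not use these pairs. The permutation test returned p = 0.1 for TRINITY_DN166467_c1_g1, the lowest value within reach of 3 libraries per color, and p = 0.2 for TRINITY_GG_57821_c1_g1. Groups that did not overlap, with RS the lower, were found for 3.56% of the tested features.

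**Figure D2:**
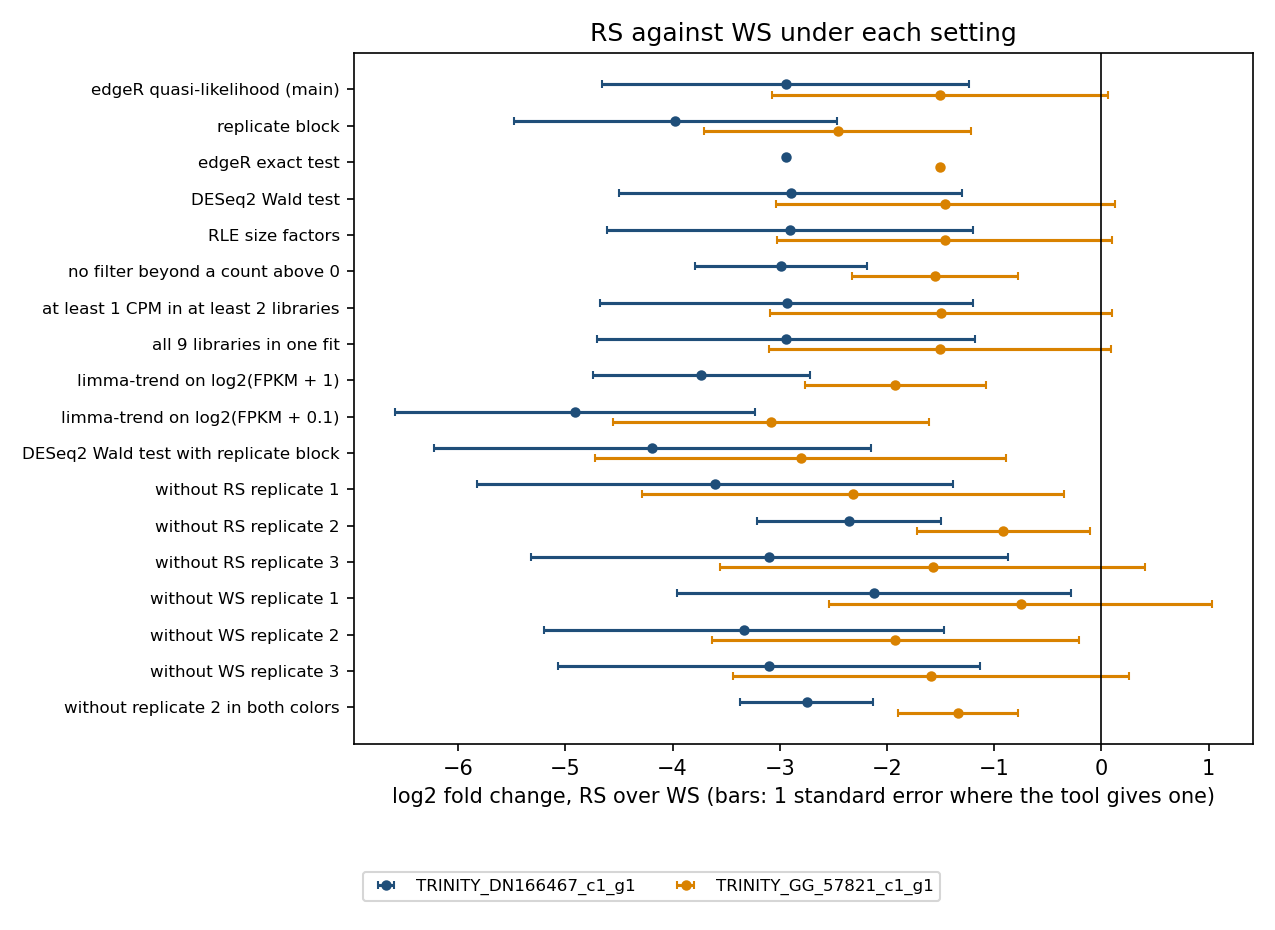
Log2 fold change of RS over WS for TRINITY_DN166467_c1_g1 (blue) and TRINITY_GG_57821_c1_g1 (orange) under each processing setting, with bars of 1 standard error where the tool gives one. All values lie below 0, from -4.91 to -2.12 for the first feature and from -3.08 to -0.76 for the second.

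RS replicate 2 carried much of the spread of these values. Without it the log2 fold change of RS over WS was -2.35 (standard error 0.85) for TRINITY_DN166467_c1_g1, with an unadjusted p of 0.0304 and an FDR of 1 from edgeR, and -0.91 (standard error 0.80) for TRINITY_GG_57821_c1_g1, with an unadjusted p of 0.295. With replicate 2 left out of both colors, a choice made after seeing the data, the values were -2.75 (standard error 0.62, unadjusted p = 0.00794 and FDR 1 from edgeR) and -1.34 (standard error 0.56, unadjusted p = 0.0660 and FDR 1 from edgeR).

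In edgeR's main fit the log2 fold changes from BS were larger in size than those between RS and WS. Low BS values were part of the choice of the features. For TRINITY_DN166467_c1_g1 this order depended on the scale. With limma on log2(FPKM + 1), RS differed from BS by 1.95 but from WS by -3.73. With 0.1 added in place of 1, these values were 3.16 and -4.91. The difference of BS from WS stayed the largest, at -5.68 and -8.065. In RS against BS, TRINITY_DN166467_c1_g1 had a log2 fold change of 5.30 (standard error 2.21), and its mean FPKM was 27.2 times as high in RS. BS replicate 3 held nearly all of the BS reads, and without BS replicate 3 the log2 fold change was 7.96. In BS against WS the log2 fold change was -8.25 (standard error 1.57), and without BS replicate 3 it was -10.89. TRINITY_GG_57821_c1_g1 had no read in BS, so only limits can be given for its folds in FPKM. Against 3 counts per BS library, a mean of 0.0822 FPKM, its mean FPKM was at least 30.5-fold higher in RS and at least 139-fold higher in WS. The RS means of both features include RS replicate 2, which had no read of either, as had BS replicate 2. The folds of RS over BS thus do not hold in the pair numbered 2. In BS against WS, 4.22% of the tested features had groups that did not overlap with BS the lower, and 0% passed the threshold of edgeR's test. In RS against BS, where TRINITY_GG_57821_c1_g1 was below the filter on low counts, 0% passed it as well.

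Features with a like distribution were counted as a description only, since low BS values were the basis of the choice. When the filter was run on the 9 libraries at once it kept 78848 features, of which 12 were at no more than 0.61 FPKM in every BS library and at no less than 3.95 FPKM in every WS library, the limits set by the 2 features themselves. Of these 12, 8 were also at 0 in RS replicate 2, both features among them. The share of all kept features at 0 in RS replicate 2 was not computed. BS replicate 2 has the same number, and the 12 had to be low there, so the 8 cannot be read as a shared trait.

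The 2 features varied together. Over the 9 libraries the Pearson correlation of log2(FPKM + 1) was 0.986, and among the 78847 other kept features each was the most like the other. Libraries of the same number were taken to share a fish, and 4 of the points lie at or near 0 for both features. Among these 4, the BS points are low by the choice of the features, so a high r was partly set by that choice. No correlation over RS and WS alone is given. The value and the rank thus describe a likeness and carry no test. The highest r below it was 0.970 for TRINITY_DN166467_c1_g1 and 0.950 for TRINITY_GG_57821_c1_g1.

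By the same measure, taken against the mean of the 2, the closest 5 features were TRINITY_DN170474_c4_g1 (r = 0.963), TRINITY_DN158124_c9_g2 (0.955), TRINITY_GG_125181_c61_g2 (0.947), TRINITY_DN164451_c3_g3 (0.946) and TRINITY_GG_6675_c0_g1 (0.942). TRINITY_DN158124_c9_g2 was at 3.70, 0 and 8.12 FPKM in RS, at 0 in all BS libraries and at 18.12, 10.81 and 6.31 FPKM in WS. TRINITY_DN170474_c4_g1 was at 0.77, 0 and 0.53 FPKM in RS, at 0 in BS and at 4.48, 2.22 and 2.24 FPKM in WS. Both were thus absent from the same 4 libraries as TRINITY_GG_57821_c1_g1. TRINITY_GG_125181_c61_g2 differed from them in never falling below 2.79 FPKM, its value in BS replicate 2.

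The ratio of the 2 features was lower in the 2 RS libraries with reads of both than in the 3 WS libraries. The FPKM of TRINITY_DN166467_c1_g1 was 2.18 and 2.61 times that of TRINITY_GG_57821_c1_g1 in RS replicates 1 and 3, and 6.43, 7.01 and 5.65 times in WS replicates 1 to 3. The RS and WS ratios did not overlap, though how often other pairs of features do so was not computed. The mean ratio was 2.39 ± 0.307 in RS (SD, n = 2) and 6.36 ± 0.684 in WS (SD, n = 3), and the log2 ratio was lower in RS by a difference of -1.41. The exact two-sided permutation test returned p = 0.2, the lowest value within reach of 2 and 3 libraries, so it cannot decide whether the colors differ.

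**Figure D3:**
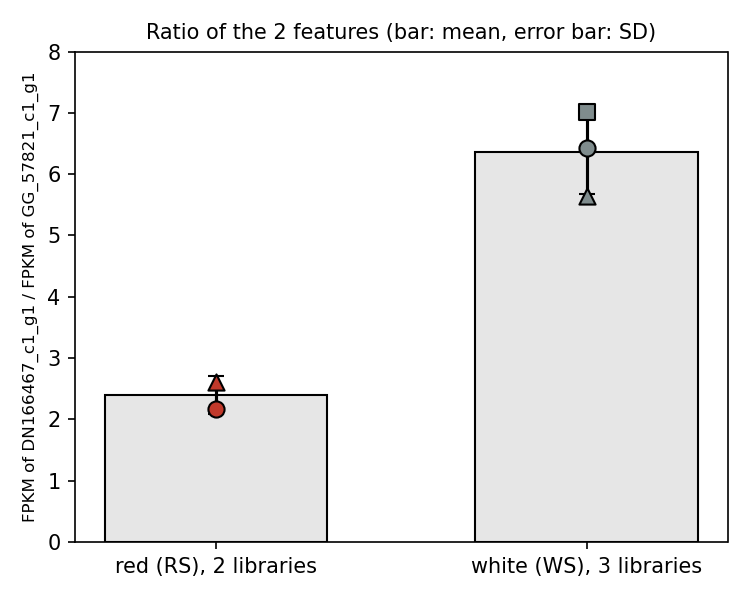
Ratio of the FPKM of TRINITY_DN166467_c1_g1 to that of TRINITY_GG_57821_c1_g1 in the libraries where both had reads. Bars are means, error bars are SDs and points are libraries. The 2 RS values lie below 3 and the 3 WS values above 5.

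The ratio depends on how reads were divided. TRINITY_DN166467_c1_g1 stands for 12 assembled transcripts, with an abundance-weighted length of 1562 to 1686 bp in the RS and WS libraries with reads, and TRINITY_GG_57821_c1_g1 for 3, with 2284 to 2363 bp. In RS replicate 1 their fractional counts of 148.95 and 106.05 summed to 255.00, a whole number to 2 decimals, whereas the sums in RS replicate 3 and WS replicates 1, 2 and 3 were 348.51, 2722.86, 1039.15 and 1649.26. The split between them is therefore uncertain, and the counts of both were also summed, a choice made after seeing the data. Their summed CPM was 32.7, 0 and 20.4 in RS, against 184.5, 35.5 and 81.9 in WS. The means were 17.7 ± 16.5 and 100.6 ± 76.2 CPM (SD, n = 3 each), and RS was lower in 3 of 3 same-numbered pairs. The exact two-sided permutation test, which did not use the pairs, gave p = 0.1, the smallest it can reach here.

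A further feature of the same assembly component had reads mainly in the libraries numbered 2, in RS and BS of which the first had none. TRINITY_DN166467_c1_g2, built from 4 transcripts, had 30 counts in RS replicate 2, 12 in BS replicate 2, 3 in BS replicate 3 and 21 in WS replicate 2, and 0 elsewhere, so that 63 of its 66 counts came from libraries numbered 2. The remaining features of both clusters were nearly empty. TRINITY_DN166467_c0_g1 had 12 counts in BS replicate 1, TRINITY_DN166467_c0_g2 had 2 in BS replicate 3, and TRINITY_GG_57821_c2_g1 had 1 in RS replicate 3 and 4.11 in WS replicate 3.

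Of the other 12 features that the study listed under melanogenesis, 9 were annotated as transcription factors or as enzymes of melanin synthesis, and their levels ran differently from those of the 2 features. The study chose this list on these samples, so its directions are not independent evidence. In RS against WS, 6 of the 12 were tested and 0 passed the threshold. Of the 6, 5 had a positive and 1 a negative log2 fold change, with a median of 4.77 against -0.02 over all tested features. An unadjusted p under 0.05 was found for 4, each higher in RS, as for 0.178% of all tested features.

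**Figure D4:**
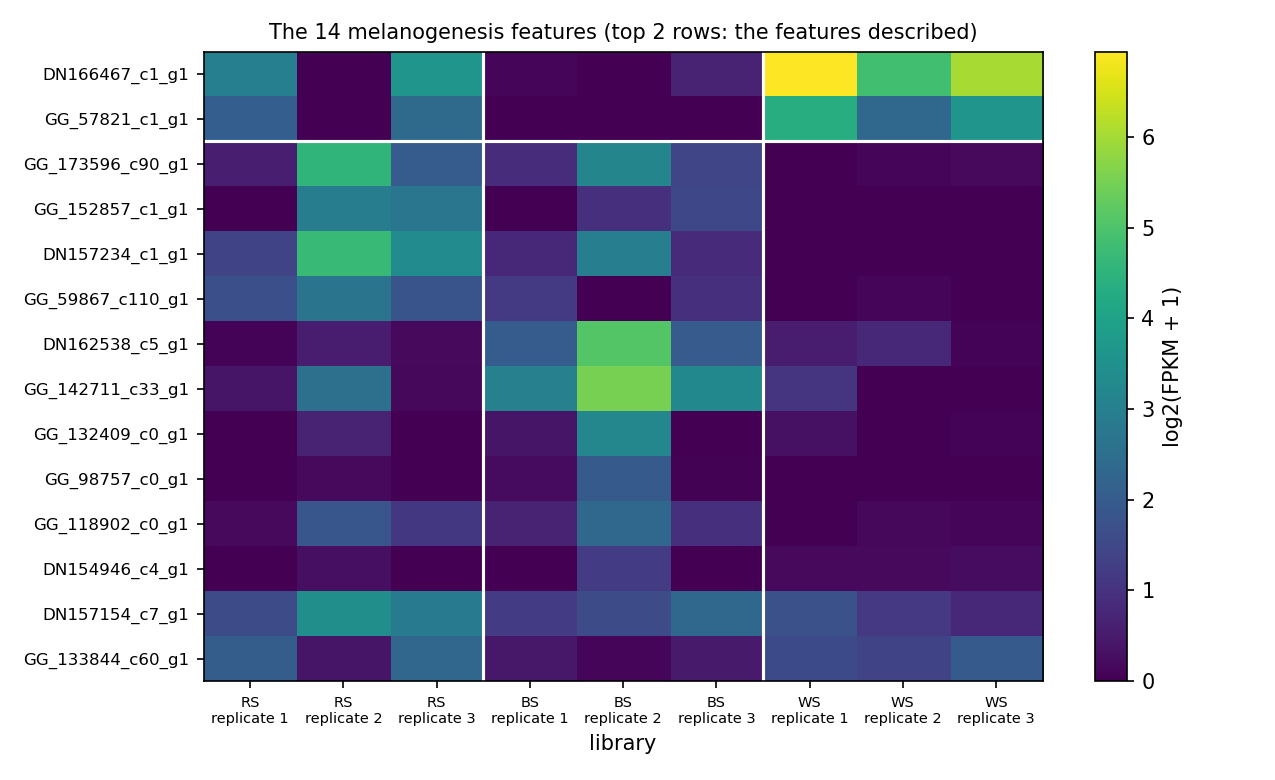
Level of the 14 features that the study listed under melanogenesis, as log2(FPKM + 1), in the 9 libraries. The 2 upper features, TRINITY_DN166467_c1_g1 and TRINITY_GG_57821_c1_g1, are brightest in WS, where the 4 transcription factors below them are at or near 0.

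The 4 transcription factors, of the kind that steer melanocyte differentiation, were at or near 0 in WS, where the 2 features were highest. Their summed level was 4.43 to 59.13 FPKM in RS, 2.86 to 15.71 FPKM in BS and 0 to 0.14 FPKM in WS. TRINITY_DN157234_c1_g1 was at 1.70, 25.01 and 9.14 FPKM in RS, 0.74, 6.83 and 0.80 FPKM in BS and 0 in WS, and RS replicate 2, where both members of the pair were at 0, was its highest library. Its unadjusted p was 0.000201 in RS against WS, at an FDR of 1 from edgeR. In that direction, 0.178% of all tested features had an unadjusted p under 0.05.

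The 5 enzymes of melanin synthesis summed to 0.48 to 8.75 FPKM in RS, 11.26 to 92.91 FPKM in BS and 0.18 to 1.74 FPKM in WS. TRINITY_GG_142711_c33_g1 was at 0.31, 4.90 and 0.11 FPKM in RS, 7.12, 44.98 and 8.53 FPKM in BS and 1.07, 0 and 0 FPKM in WS. It was highest in the color in which the 2 features were lowest.

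Among the rest of the list, TRINITY_DN157154_c7_g1 was annotated with endothelin receptor activity. Its level was 2.07, 9.71 and 6.27 FPKM in RS, 1.36, 2.07 and 3.96 FPKM in BS and 2.28, 1.21 and 0.73 FPKM in WS. TRINITY_GG_133844_c60_g1, annotated with frizzled binding and Wnt signaling, was the listed feature whose low libraries were the same 4. It was at 3.16, 0.31 and 3.86 FPKM in RS, 0.37, 0.06 and 0.41 FPKM in BS and 1.95, 1.69 and 2.94 FPKM in WS. Unlike the 2 features, it was not lower in RS replicates 1 and 3 than in WS, and its log2 fold change of RS over WS was 0.86 (standard error 1.00, FDR 1 from edgeR).

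Features annotated to melanosome organization ran opposite to the 2 features. They number 11, of which 5 are the melanin enzymes described above, and the study drew them from features it had selected on these samples, so their direction is not independent evidence. They summed to 0.82, 34.76 and 2.96 FPKM in RS, 16.71, 237.7 and 22.82 FPKM in BS and 2.68, 1.89 and 0.92 FPKM in WS. The 6 that are not melanin enzymes summed to 0.34, 26.01 and 1.52 FPKM in RS, 5.45, 144.8 and 10.34 FPKM in BS and 0.94, 1.05 and 0.74 FPKM in WS. The BS libraries combine high sums with low levels of the 2 features because these were selected on their absence from BS. Only the RS and WS libraries can add to that choice, and their levels were part of it too. Among those 6 libraries, the 2 features together were at 0 in RS replicate 2, which had the highest melanosome sum, and at 10.26 FPKM or more in the other 5, where the sum of the 11 was below 3. RS replicate 2 was thus high in melanosome features for its color, with 1 of the 11 at 0 against 7 and 6 in RS replicates 1 and 3. It also had more features above 0 in all, 172179 against 102248 and 142621 in RS replicates 1 and 3, and in WS the library numbered 2 likewise had fewer of the 11 at 0, 3 against 7 and 6 in WS replicates 1 and 3. The part of melanosome-bearing cells in the differences between colors was not tested.

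**Figure D5:**
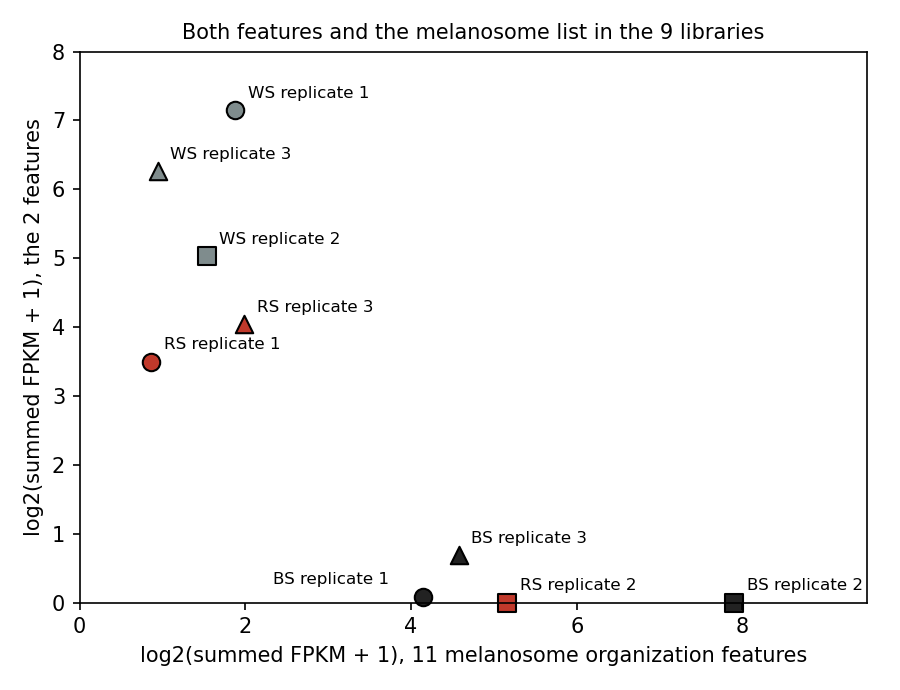
Summed level of TRINITY_DN166467_c1_g1 and TRINITY_GG_57821_c1_g1 (vertical) against the summed level of 11 melanosome organization features (horizontal), both as log2(summed FPKM + 1), in the 9 libraries. Color gives the skin color and the symbol the replicate number. RS replicate 2 lies with the 3 BS libraries, low by the choice of the features, at the lower right, and the other 5 libraries lie at the upper left.

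Features of other tissues were also compared. The 5 troponin features, which mark muscle, summed to 0 to 0.47 FPKM in RS, 0.71 to 93.94 FPKM in BS and 0.50 to 6.19 FPKM in WS, with the high values in BS replicates 1 and 3. BS replicate 2, at 0.71 FPKM with 4 of the 5 at 0, held no read of either of the 2 features. The 1 keratin feature, a marker of epithelial cells, had 1 count in all, in WS replicate 2, so it could not serve to check the skin label.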

How the data were processed

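The authors assembled the reads of the 9 libraries with Trinity into transcripts grouped as genes, called features here, and quantified them with RSEM (given as 1.2.21 in the submitters' processing notes, while the methods of the study name another release; TopHat2 2.0.10 and edgeR 3.22.3 are also named in those notes). The deposited tables give, per library, expected counts, TPM and FPKM as RSEM wrote them, with weighted lengths. Strand use in counting is not given in the sources used here.

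Before fitting, the expected counts were rounded. Each pair of colors was fitted on its own with edgeR 4.0.16 (filterByExpr with a minimum count of 10, TMM, quasi-likelihood test, Benjamini-Hochberg adjustment over all tested features). TRINITY_DN166467_c1_g1, TRINITY_GG_57821_c1_g1 and the lists were chosen with earlier results of these data known. Named features were the 2, the 12 others of the pathway, those of the same assembly clusters and the 5 most alike by correlation. Alternatives used DESeq2 1.42.0, limma 3.58.1, other scalings and filters, and each library left out. On simulated RS and WS counts with 200 planted changes the fit recovered 200, with 8 false calls among 70714 tested features. The simulated spread was set in advance, without pairs, and not taken from these libraries. The outcome thus does not show how many changes the fit would find in them. Values were compared in R 4.3.3 and scipy 1.17.1.

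The labels say that 3 fish carried all colors. Same-numbered libraries deviated together (correlations of 0.490 to 0.747 over 9 pairs and 78848 features, against -0.542 to -0.001 for the 18 others), so the replicate numbers were taken to pair the libraries. Deviations were taken from the mean of each color, so positive values in same-numbered pairs by themselves push the others below 0. That a number marks a single fish is not stated in the labels.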

Additional observations from a re-analysis of the deposited data

How the results depend on the processing

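In RS against WS neither TRINITY_DN166467_c1_g1 nor TRINITY_GG_57821_c1_g1 passed the threshold under any of the 17 alternatives run, and all log2 fold changes were below 0. With each library left out they ran from -3.61 to -2.12 and from -2.32 to -0.76. With the replicate number as a block they were -3.97 (unadjusted p = 0.0453, FDR 1 from edgeR) and -2.46 (unadjusted p = 0.105, FDR 1 from edgeR), and in edgeR's quasi-likelihood test the block changed no call of these or of the listed features in any comparison. The lowest FDR over the alternatives was 0.129 and 0.801, both from edgeR without a filter. The number of features called in RS against WS was 0 in the main fit, 49 with edgeR's exact test, 58 with DESeq2, 346 without a filter and 220 with DESeq2 and the block, the last chosen after seeing the data. In the same order of settings, 3, 4, 2 and 4 of the other 12 melanogenesis features were called in RS against WS. In BS against WS these were 1, 3, 6 and 3, where 43, 43, 389 and 85 of all features were called. Of the 12, 6 were tested in both comparisons, and all 12 without a filter. The features tested in all numbered 66740 in RS against WS and 68812 in BS against WS, but 279939 and 290342 without a filter. Between RS and BS, 1 was called with DESeq2, 2 without a filter and 3 with DESeq2 and the block, beside 33, 355 and 76 of all features. Here 8 of the 12 were tested, among 65727 features in all, and without a filter 12 among 285309.

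Of the described differences from BS, those on limma's log2(FPKM + 1) scale were the smallest, 1.95 in RS against BS and -5.68 in BS against WS for TRINITY_DN166467_c1_g1 and -3.42 in BS against WS for TRINITY_GG_57821_c1_g1. With a pseudocount of 0.1 they were 3.16 in RS against BS for the first and -6.59 in BS against WS for the second, for which DESeq2 with the block gave -10.54. With libraries left out, TRINITY_DN166467_c1_g1 ran from 4.63 to 7.96 in RS against BS and from -10.89 to -7.46 in BS against WS, and TRINITY_GG_57821_c1_g1 from -11.90 to -10.98 in BS against WS. The pseudocount or the fitting method sets the size of a change against values at 0. The narrow range for TRINITY_GG_57821_c1_g1 in BS against WS is therefore no measured fold. The log2 ratio of the 2 features, RS minus WS, ran from -1.54 to -1.28. Their correlation was 0.973 on log2(FPKM + 0.1), 0.980 on log2(CPM + 1), 0.944 as Spearman's rho and 0.979 to 0.994 with libraries left out. With 3 libraries per color, an exact permutation test of 1 feature that does not use the pairs cannot go below p = 0.1.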
